A study of Mus musculus with 170 samples.

Results

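The tricarboxylic acid (TCA) cycle and fatty acid oxidation genes described here are 37 nuclear genes of 40549 in the table. They were chosen by name from the textbook enzymes of both pathways, with earlier results of these data known. 21 of them encode the pyruvate dehydrogenase complex and the enzymes of the TCA cycle, and 16 encode the mitochondrial fatty acid oxidation machinery. All 37 were in the table and were above 0 in at least 1 cell.

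Single cells came from the ventricular part of mouse hearts at embryonic day 9.5 (C57BL/6), picked by hand and sequenced with Smart-seq2, which copies full-length polyadenylated RNA. The control cells, labelled wild type, came by the study's methods from Dgcr8 loxP/loxP; Rosa26 mT/mG/+ embryos without Cre. The conditional knockout (cKO) cells, labelled Mesp1Cre/+; Dgcr8-/-, carried the same floxed alleles and reporter plus Cre from the Mesp1 locus, which acts in early mesoderm and so in most lineages of the heart, and they lack the microRNA-processing cofactor DGCR8 wherever the Cre has acted. The 143 cells analysed came in 2 batches, with 35 and 39 control cells (74) and 35 and 34 cKO cells (69). No label ties a cell to an embryo, so each genotype counts as 1 sample, the differences have no replicate check and no test was run. The SDs below are over cells.

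Acetyl-CoA links the pathways. The pyruvate dehydrogenase complex makes it from pyruvate in the mitochondrial matrix, the carnitine shuttle brings long-chain fatty acids across the inner mitochondrial membrane, and repeated rounds of dehydrogenation, hydration, oxidation and thiolysis shorten them to acetyl-CoA. The TCA cycle then oxidises acetyl-CoA and feeds electrons to the respiratory chain, and the heart, which draws largely on glycolysis in the early embryo, depends mostly on fatty acid oxidation in the adult.

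Promoter sequences are shown because the members are often described as sharing regulators of mitochondrial genes. RefSeq windows of GRCm38.p6, from 250 bases before to 50 bases after a start site, matched 33 of the 37 members (not Idh3a, Sdhc, Cpt1b and Acaa2). A gene with several windows counts once if any of them holds a motif. The motif GCATGCGC, the core bound by nuclear respiratory factor 1, was found on either strand in the windows of 5 of 33 members (Ogdh, Sdhb, Acadm, Etfa and Etfdh), or 15.2%, against 3.05% of all 27025 genes with a window. The stretches around it in 4 of these genes are given here in the direction of the gene, with the motif in capitals.
Sdhb, chr4:140961207-140961234, plus strand: agcccagtggGCATGCGCcctacgggcc
Acadm, chr3:153944784-153944811, minus strand: ggagcaggacGCATGCGCagagggcctt
Etfa, chr9:55512331-55512358, minus strand: agggcgtggcGCGCATGCcagcgtctcg
Etfdh, chr3:79628878-79628905, minus strand: tgcttctaggGCGCATGCgcacacgcga

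The motif TCAAGGTCA, which oestrogen-related receptors bind, occurred in 1 member's window, that of Sdhd, and in those of 0.466% of all genes. It lies on the reverse strand, 36 bases downstream of the Sdhd start site, and is capitalised below.
Sdhd, chr9:50603800-50603823, minus strand: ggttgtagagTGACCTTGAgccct
The shorter AAGGTCA, which lies within TCAAGGTCA, was in the windows of Ogdh, Sdhd and Acadm (9.09% of members and 5.38% of all genes). The ETS motif CCGGAAG was in 7 member windows (21.2% against 9.93%) and ACGTG, the core of the hypoxia response element, in 6 (18.2% against 21.8%). GGGCGG, the GC box bound by Sp1, was in 24 (72.7% against 38.2%), while TATAAA was in 0 of 33 (15.7% of all genes). Both strands were searched for each motif. A match describes letters in a window and was not tested as a binding site.

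Hadha and Hadhb, which encode the alpha and beta subunits of the mitochondrial trifunctional protein, lie head to head on chromosome 5 with 272 bases between their start sites. The stretch that their 2 windows share, 228 bases with 1 GC box in capitals and no TATAAA, is shown because 1 short region serves both subunits.
Hadha and Hadhb, chr5:30155003-30155230, plus strand: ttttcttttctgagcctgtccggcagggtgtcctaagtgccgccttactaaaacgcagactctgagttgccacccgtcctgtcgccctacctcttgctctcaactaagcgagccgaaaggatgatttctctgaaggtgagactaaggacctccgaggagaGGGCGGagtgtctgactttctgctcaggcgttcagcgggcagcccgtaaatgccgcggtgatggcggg
Sdhd and Dlat also lie near each other, with 30783 bases between them on chromosome 9, which holds 5 members in all. Genes other than members between them were not looked for. Idh3g and Pdha1 are on the X chromosome.

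The cells were sorted into classes by Ward clustering on 55 marker genes. 93 cells formed a cardiomyocyte-like (CM-like) cluster with 15 of 15 cardiomyocyte markers above the other cells, of which 27 were control (19 from batch 1, 8 from batch 2) and 66 were cKO (33 from each). The other named classes held control cells alone: 22 endothelial-like, 13 epicardial-like and 5 erythroid-like. 10 cells (7 control and 3 cKO) stayed unnamed, in a cluster whose leading genes were mostly mitochondrial transcripts (median 52.3% of TPM, but 4.32% in 1 control cell). The table holds TPM (a level per unit of transcript length, set to the same sum for every cell), which keeps no record of sequencing depth, so the number of genes above 0 in a cell stands in for it. Xist was at 1 TPM or more in 64 of 69 cKO cells and 3 of 74 control cells, and the Y-linked Ddx3y in 0 of 69 and 49 of 74, so genotype and sex cannot be told apart here. Dgcr8 itself averaged 2.41 on the log2(TPM + 1) scale in control and 1.69 in cKO CM-like cells, and values per gene do not resolve the floxed exons.

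In control CM-like cells the TCA cycle genes were expressed at high levels and almost without gaps. The median cell had all 21 at 1 TPM or more, and 17 of 27 cells had the full set. Of the 16 fatty acid oxidation genes the median cell had 13, and 1 cell had all. On the log2(TPM + 1) scale the highest mean levels were those of Mdh2, the mitochondrial malate dehydrogenase (9.75 ± 0.76, SD, n = 27 cells), and Sdhb, the iron-sulphur subunit of succinate dehydrogenase (9.26 ± 1.67). Etfb, which carries electrons from the acyl-CoA dehydrogenases, followed at 9.04 ± 1.15. The lowest were Acadvl (2.84 ± 2.71), Slc25a20 (2.95 ± 2.52) and, far below them, Cpt1a (0.21 ± 0.79). Neighbours in this order differed by less than their SDs over cells, apart from the step down to Cpt1a, which exceeded the SD of Cpt1a itself.

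The first comparison asks how the pathways stood in cKO against control CM-like cells. A gene passed if it was above 0 in more than 10 of the CM-like cells, and it was called if the pooled difference of mean log2(TPM + 1) was at least 1 with the same sign in both batches. 15061 genes passed. All 21 TCA genes passed and 15 of 16 fatty acid oxidation genes did, Cpt1a being the exception.

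Most members were lower in the cKO cells, by small amounts. 19 of the 21 TCA genes had a lower mean and 2 a higher one, with a median difference of -0.39, and 12 of the 15 fatty acid oxidation genes were lower, with a median of -0.69, while the median of all genes was 0.06. 4 TCA genes were called lower (Suclg2, Dlat, Dlst and Fh1) and 0 higher. 3 fatty acid oxidation genes were called lower (Cpt1b, Acads and Hadh) and 0 higher. Across all genes tested 5.85% were called lower and 6.73% higher, against 19.05% lower of the TCA genes and 20% lower of the fatty acid oxidation genes that passed. The ranges over cells overlapped between genotypes for each of the 37 members.

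Values differed by batch. In batch 1 the median difference was 0.01 for the TCA genes and -0.01 for the fatty acid oxidation genes (0.17 for all genes), and in batch 2 it was -1.16 and -1.41 (-0.17 for all genes). 9 TCA genes and 8 fatty acid oxidation genes were lower in both batches. Depth moved with the batches in the same way: the median number of genes detected was 8458 in control against 9845 in cKO CM-like cells of batch 1, but 9704 against 7786 in those of batch 2. The batch 2 control value rests on 8 cells. Mitochondrial genome transcripts made up a median of 6.30% of TPM in control and 2.95% in cKO CM-like cells, and up to 41.1% in 1 control cell. The part of depth and of these transcripts in the differences was not tested beyond the cell subsets that follow, and shares of cells below are not adjusted for depth. With CM-like cells of 6000 to 11000 detected genes alone (24 control and 63 cKO cells), the medians were -0.45 for the TCA genes and -0.54 for the fatty acid oxidation genes. The batches still differed there, with 0.04 and -0.02 in batch 1 and -1.37 and -1.85 in batch 2, which kept 6 control cells. With CM-like cells under 10% of mitochondrial genome transcripts alone (23 control and 61 cKO cells), a choice made after seeing the data, the medians were -0.69 for the TCA genes and -0.92 for the fatty acid oxidation genes. In batch 1 they were -0.32 and -0.33, and in batch 2 -1.33 and -1.93.

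The direction also depended on where the CM-like cluster ended. With 4 clusters instead of 5, the 10 unnamed cells joined it, and the medians became 0.42 for the TCA genes and 0.053 for the fatty acid oxidation genes, with 0 genes called lower in either. The median of all genes was then 0.17, above that of the fatty acid oxidation genes, and 2.28% of all genes were called lower. The pathway differences between genotypes are therefore given for the 93 CM-like cells as defined above.

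**Figure D1:**
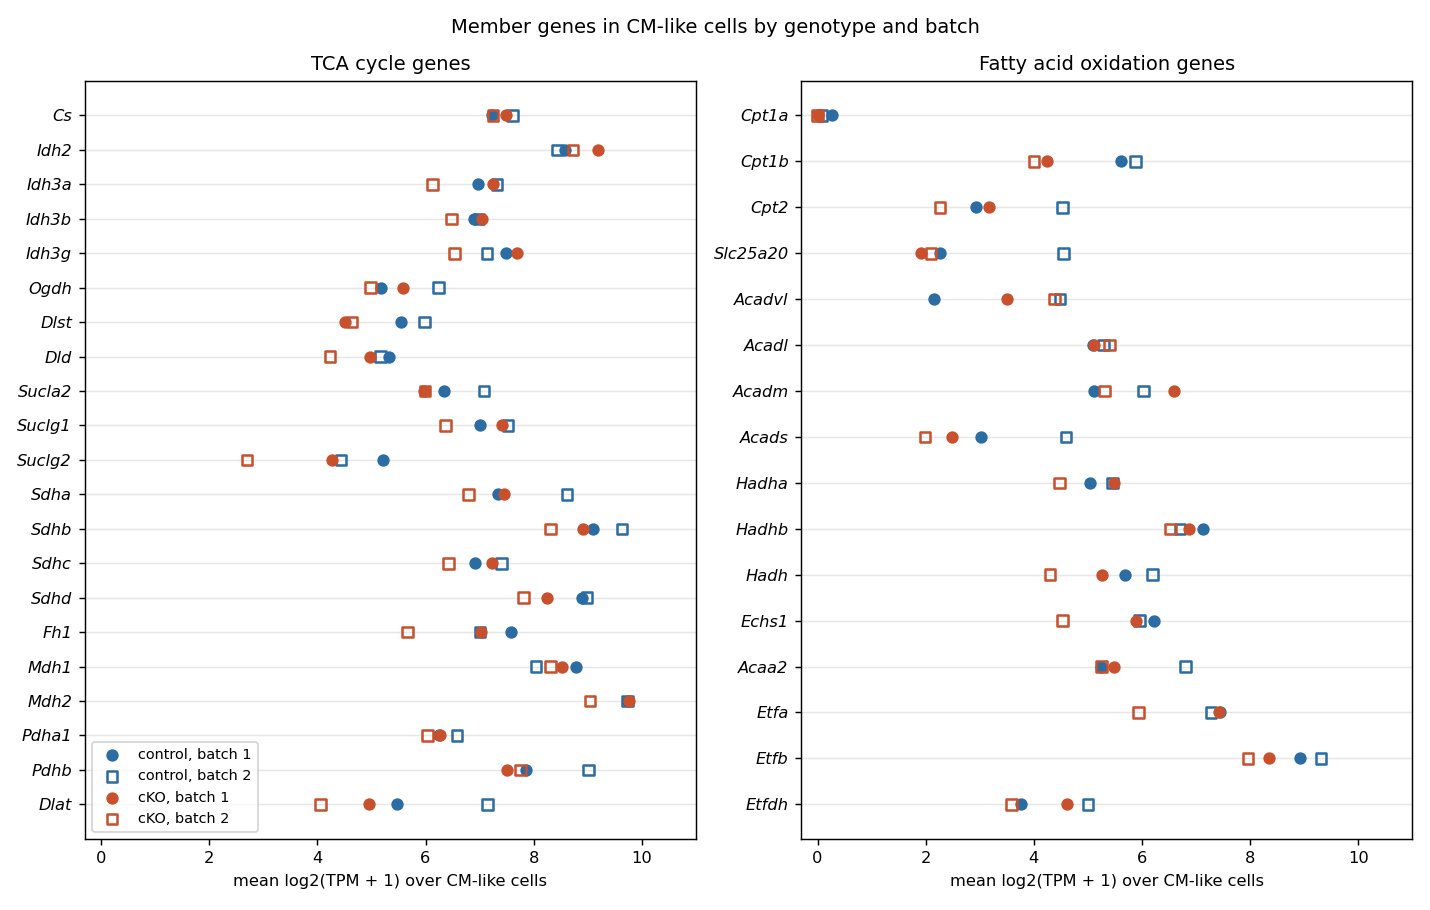
Mean log2(TPM + 1) of each member over CM-like cells (horizontal axis), for control (blue) and cKO (orange) cells of batch 1 (filled circles; 19 and 33 cells) and batch 2 (open squares; 8 and 33 cells). Cpt1b and Dlst, among other members such as Dlat, Suclg2, Sdhd and Hadh, are lower in both cKO batches than in both control batches. For Idh3a, Ogdh and Cpt2 the batch 2 cKO mean alone lies below both control means.

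Of the pyruvate dehydrogenase genes among the members, Dlat alone was called. Dlat encodes the E2 acetyltransferase core of the pyruvate dehydrogenase complex. Its mean log2(TPM + 1) was 5.47 and 7.14 in control cells of batches 1 and 2, and 4.95 and 4.05 in cKO cells. Single cells ran from 0.70 through a median of 6.42 to 8.48 in control and from 0.00 through 5.44 to 8.08 in cKO. The pooled difference was -1.47 (-0.52 in batch 1 and -3.09 in batch 2), so its size came mainly from batch 2, and the share of cells at 1 TPM or more was 92.6% (95% exact binomial interval 75.7 to 99.1, counting error only, as for all intervals here) against 77.3% (65.3 to 86.7). The E1 subunits Pdha1 (-0.19) and Pdhb (-0.57), like the shared E3 subunit Dld (-0.67), were not called.

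Citrate synthase, Cs, which joins acetyl-CoA to oxaloacetate, was level between the genotypes. It averaged 7.24 and 7.61 in the control batches against 7.49 and 7.25 in the cKO batches, with cells from 0.32 through 8.13 to 9.24 in control and from 0.00 through 7.68 to 9.26 in cKO. The pooled difference of 0.03 (0.26 and -0.36 in batches 1 and 2) was within an SD over cells of 2.04 in control.

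The isocitrate dehydrogenases include the NADP-linked Idh2 and the NAD-linked Idh3 complex of the cycle proper. Idh2 was the sole TCA gene higher in both batches, by 0.61 and 0.29 (0.42 pooled), and was not called. Its means were 8.57 and 8.44 in control and 9.18 and 8.73 in cKO, with cells from 0.51 through 9.35 to 10.42 and from 3.77 through 9.29 to 11.02. The median cells of the genotypes nearly coincide, and with CM-like cells under 10% mitochondrial transcripts the Idh2 difference was -0.06. The Idh3 subunits Idh3a (-0.39), Idh3b (-0.17) and Idh3g (-0.27) were each higher in batch 1 and lower in batch 2.

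In the oxoglutarate dehydrogenase complex the E2 subunit Dlst was called lower and the E1 subunit Ogdh was not called. Dlst averaged 5.54 and 5.98 in the control batches against 4.51 and 4.64 in the cKO batches. Cells ran from 0.00 through 6.45 to 7.67 in control and from 0.00 through 5.59 to 8.05 in cKO. Its difference was the most even of the called TCA genes, -1.02 in batch 1 and -1.34 in batch 2 (-1.09 pooled). Ogdh differed by -0.22 pooled, from 0.39 in batch 1 to -1.26 in batch 2.

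Succinyl-CoA ligase pairs an alpha subunit, Suclg1, with a beta subunit that sets the nucleotide it makes, Sucla2 for ATP and Suclg2 for GTP. Suclg2 had the lowest difference of the TCA genes, -1.50 (-0.94 and -1.74 in batches 1 and 2). It averaged 5.21 and 4.44 in control and 4.27 and 2.70 in cKO, with cells from 0.00 through 5.72 to 7.90 in control and from 0.00 through 3.96 to 8.04 in cKO. It was at 1 TPM or more in 24 of 27 control cells (88.9%, 70.8 to 97.6) and 42 of 66 cKO cells (63.6%, 50.9 to 75.1). Among those cells the mean was 5.59 and 5.38, so the genotypes differed more in the share of cells with the transcript than in its level there.

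Sucla2 differed less, by -0.58 (-0.37 and -1.09). Its means were 6.35 and 7.08 in control and 5.98 and 5.99 in cKO, and its cells ran from 0.78 through 7.04 to 8.46 and from 0.00 through 6.64 to 8.82. Sucla2 exceeded Suclg2 in 21 of 27 control and 50 of 66 cKO cells, by a mean of 1.58 and 2.50 log2 units. Suclg1 differed by -0.27.

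Succinate dehydrogenase, which is also complex II of the respiratory chain, was lower in its 4 subunits without a call: Sdha -0.60, Sdhb -0.65, Sdhc -0.22 and Sdhd -0.90. Sdhd, a membrane anchor, whose downstream receptor motif is shown above, averaged 8.90 and 8.99 in control and 8.25 and 7.81 in cKO. Cells ran from 2.05 through 9.72 to 10.34 in control and from 3.64 through 8.29 to 9.70 in cKO, so the median control cell lay just above the highest cKO cell. It was detected at 1 TPM or more in each of the 93 cells, which sets it apart from Suclg2.

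Fh1, the fumarase that follows, averaged 7.59 and 7.00 in control and 7.03 and 5.67 in cKO. Its cells ran from 2.19 through 7.80 to 9.24 in control and from 0.00 through 6.93 to 9.43 in cKO. The difference was -1.07 (-0.56 and -1.34), with 27 of 27 control and 63 of 66 cKO cells at 1 TPM or more. The malate dehydrogenases Mdh1 (-0.14) and Mdh2 (-0.34), which close the cycle and the malate shuttle, were not called.

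**Figure D2:**
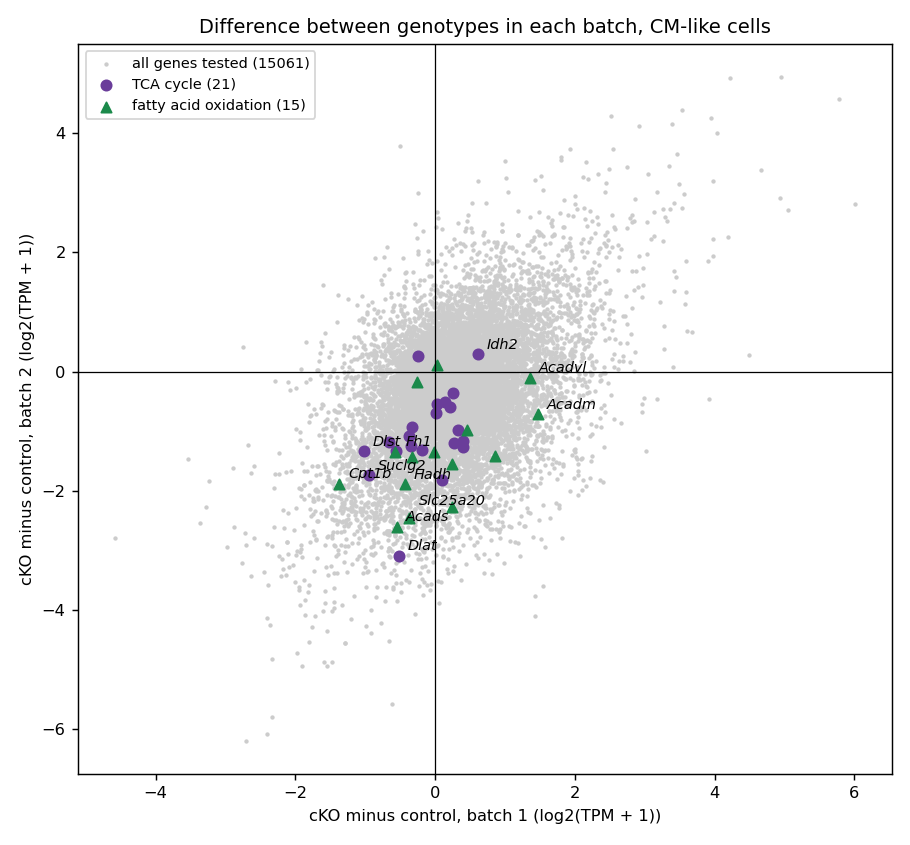
Difference of mean log2(TPM + 1), cKO minus control CM-like cells, in batch 1 (horizontal axis) and batch 2 (vertical axis) for the 15061 genes tested (grey), the TCA genes (purple circles) and the fatty acid oxidation genes that passed (green triangles). Members spread around 0 along the batch 1 axis, while 19 of 21 TCA and 14 of 15 fatty acid oxidation points lie below 0 on the batch 2 axis.

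The carnitine shuttle held the lowest difference of all members. Carnitine palmitoyltransferase 1 commits long-chain fatty acids to oxidation, with Cpt1b as the muscle form and Cpt1a as the liver form. Cpt1b averaged 5.61 and 5.88 in the control batches and 4.24 and 4.00 in the cKO batches. Cells ran from 0.54 through 6.36 to 7.78 in control and from 0.00 through 5.01 to 8.27 in cKO, with the top of both ranges alike and a group of cKO cells near 0. The difference was -1.57 (-1.37 and -1.88), and 26 of 27 control cells (96.3%, 81.03 to 99.9) against 50 of 66 cKO cells (75.8%, 63.6 to 85.5) were at 1 TPM or more. In those cells Cpt1b averaged 5.89 and 5.33.

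Cpt1a was near 0 in most cells of both genotypes (-0.20 pooled, with -0.25 and -0.08 in the batches, and it did not pass the filter on low values). Its control means were 0.27 and 0.08 with a highest cell of 4.01 and a median of 0.00, and its cKO means were 0.01 and 0.00 with a highest cell of 0.48. It was at 1 TPM or more in 2 of 27 control cells (7.41%, 0.910 to 24.3) and 0 of 66 cKO cells, which allows up to 5.44%. Cpt1b exceeded Cpt1a in 27 of 27 control and 59 of 66 cKO cells.

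The carrier Slc25a20 exchanges acylcarnitine for carnitine, and Cpt2 restores acyl-CoA inside. Slc25a20 averaged 2.27 and 4.55 in control and 1.90 and 2.10 in cKO, with cells from 0.00 through 2.47 to 8.34 and from 0.00 through 1.45 to 8.02. Its difference of -0.94 was -0.37 in batch 1 and -2.45 in batch 2. Cpt2 moved from 0.24 in batch 1 to -2.27 in batch 2 (-0.69 pooled). Neither was called.

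The acyl-CoA dehydrogenases, which act on chains of decreasing length, did not share a direction. Acadvl takes very long chains, Acadl long, Acadm medium and Acads short. Acads averaged 3.03 and 4.59 in control and 2.48 and 1.99 in cKO, a difference of -1.26 (-0.55 and -2.60). Its cells ran from 0.00 through 4.36 to 6.52 in control and from 0.00 through 0.59 to 7.03 in cKO, and 70.4% (49.8 to 86.2) against 43.9% (31.7 to 56.7) were at 1 TPM or more. These shares were close in batch 1. The gap lay mainly in batch 2, where each of the 8 control cells was at 1 TPM or more. Where it was at that level its mean was the same within 0.1, 4.93 and 4.88.

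Acadvl was higher by 1.10 pooled and not called, since the batches disagreed in sign (1.35 and -0.10). It averaged 2.15 and 4.48 in control and 3.50 and 4.38 in cKO, with cells from 0.00 through 2.53 to 6.83 and from 0.00 through 5.48 to 7.95. Acadm split likewise, 0.56 pooled from 1.47 and -0.72. Its means were 5.11 and 6.03 in control and 6.58 and 5.31 in cKO, with cells from 0.25 through 6.18 to 8.16 and from 0.00 through 6.61 to 8.14. Acadl differed by 0.10.

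The later steps were lower in part. Hadh, the short-chain hydroxyacyl-CoA dehydrogenase, averaged 5.68 and 6.19 in control and 5.25 and 4.30 in cKO, with cells from 0.30 through 6.54 to 7.76 and from 0.00 through 5.90 to 7.63. Its difference was -1.06 (-0.43 and -1.89). Echs1, the short-chain enoyl-CoA hydratase, differed by -0.93 (-0.33 and -1.43), from means of 6.22 and 5.95 to 5.89 and 4.52, with cells from 0.00 through 6.80 to 8.48 and from 0.00 through 6.13 to 8.07.

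The trifunctional protein subunits, encoded on either side of the shared region shown above, differed by -0.18 (Hadha) and -0.31 (Hadhb). Hadhb exceeded Hadha by a mean of 1.84 log2 units in control and 1.71 in cKO cells, and the pair correlated across control CM-like cells with r = 0.33 (n = 27 cells, which share libraries and depth) and across cKO cells with r = -0.02 (n = 66). The thiolase Acaa2 differed by -0.34. Of the electron carriers, Etfa (-0.71) and Etfb (-0.89) were lower and Etfdh (-0.03) was level, and none was called.

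**Figure D3:**
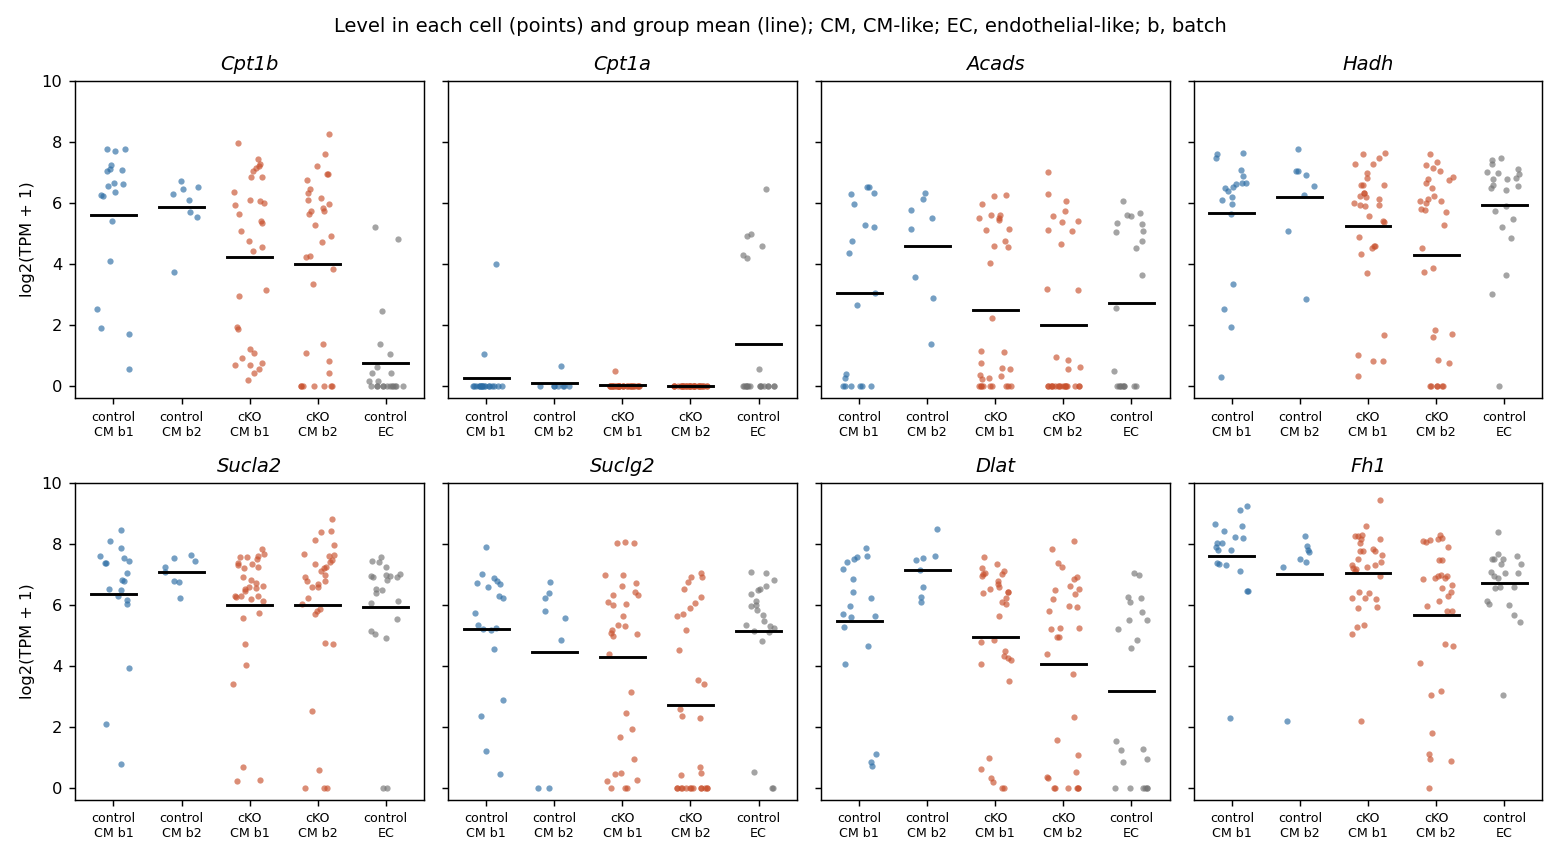
log2(TPM + 1) of 8 members in each cell (points) with the group mean (line), for CM-like cells of both genotypes by batch and for control endothelial-like cells. Cpt1b, Acads, Suclg2 and Dlat show cKO cells near 0 beside cKO cells at the level of most control cells, and some control cells are also near 0. Cpt1a is near 0 in most CM-like cells, with a highest control cell of 4.01.

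Taking each cell's mean over a pathway, the TCA genes averaged 7.22 ± 1.42 in control and 6.70 ± 1.17 in cKO CM-like cells, and the fatty acid oxidation genes 4.97 ± 1.32 and 4.51 ± 1.05. The medians over cells were 7.84 and 6.97 for the TCA genes. Both means rose with the number of genes detected in a cell (for the TCA genes r = 0.73 over 27 control and 0.58 over 66 cKO cells), and with each other (r = 0.94 and 0.77). Cells share library chemistry and depth, so these values are descriptions.

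**Figure D4:**
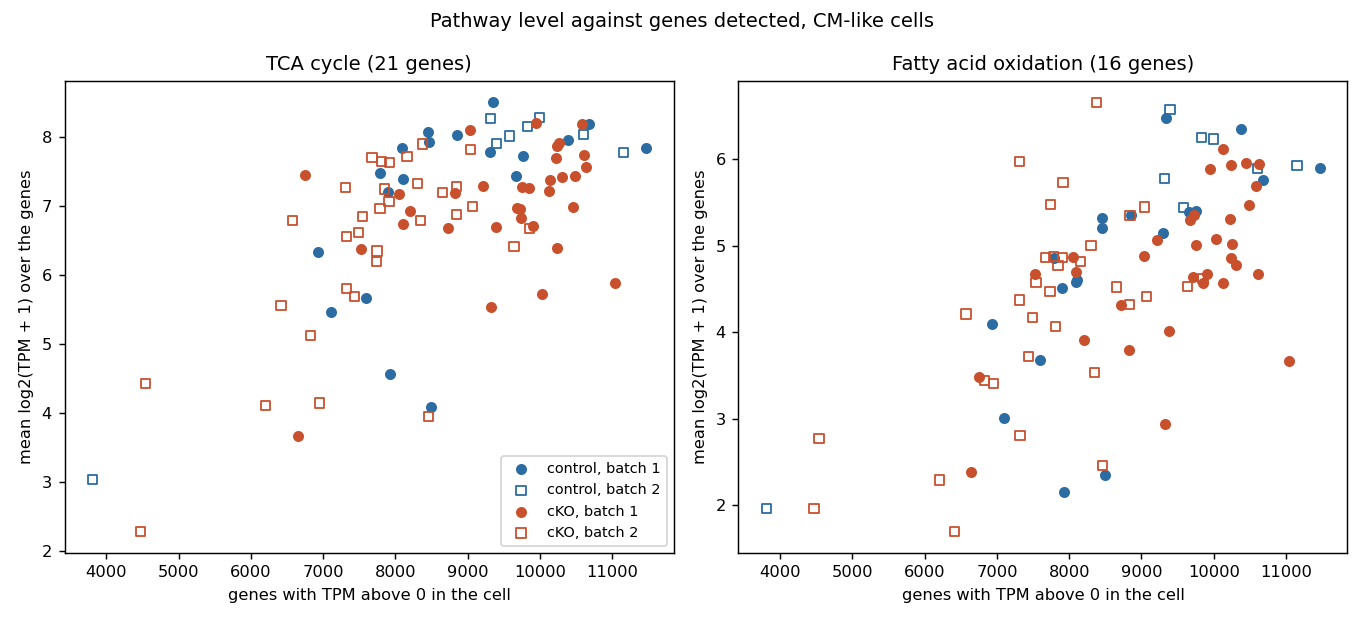
Mean log2(TPM + 1) over the 21 TCA genes (left) and the 16 fatty acid oxidation genes (right) in each CM-like cell against the genes detected in it, by genotype (colour) and batch (filled circles, batch 1; open squares, batch 2). Cells with few genes detected have low values in both genotypes, and the median of the cKO cells of batch 2 (7786 genes) lies to the left of that of the control cells of batch 2 (9704 genes).

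The markers of other classes were also present at low levels in CM-like cells. The summed log2 level of 13 endothelial markers had a median of 6.95 (range 1.73 to 24.6) in control and 9.56 (1.91 to 22.6) in cKO cells, and 0 of these markers were at 0 in every cell. For 14 mesenchymal markers it was 10.2 (2.06 to 30.04) and 14.5 (2.44 to 30.01), and 1 and 2 of these markers were at 0 in every cell of the genotype. For 6 epicardial markers it was 4.85 (0.385 to 30.03) and 6.07 (0 to 17.9), and for 7 erythroid markers 1.93 (0 to 28.2) and 5.74 (0 to 29.4), again with 0 markers at 0 throughout. In batch 1 the cKO medians were higher than the control medians for endothelial (10.3 against 4.86), epicardial (6.48 against 3.38) and erythroid markers (3.15 against 1.23), and in batch 2 they were lower (8.54 against 10.4, 5.71 against 8.12 and 7.13 against 14.6). Mesenchymal markers were higher in both (14.1 against 9.99, and 14.7 against 14.3). Their part in the member differences was not tested.

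Genes around the cycle and its supply lines were called in both directions, the higher calls at a share near that of all genes. Of 31 TCA neighbours (pyruvate import, regulation, shuttles and assembly) 29 were in the table and 28 passed. Their median was -0.13, with 4 called lower (14.3%) and 2 higher (7.14%), against 5.85% and 6.73% of all genes. The lower ones were Got2, the mitochondrial aspartate aminotransferase (-1.68), its shuttle partner Slc25a12 (-1.57), the pyruvate carrier subunit Mpc1 (-1.50) and Pdhx, the E3-binding subunit of the pyruvate dehydrogenase complex (-1.20). The higher ones were the malic enzyme Me2 (2.05) and the citrate carrier Slc25a1 (2.00). The pyruvate dehydrogenase kinases, which switch the complex off, gave 0.53 (Pdk1), -0.72 (Pdk2), 0.38 (Pdk3) and -0.16 (Pdk4).

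Of 37 fatty acid oxidation neighbours 34 passed, with a median of -0.02. Of these, 7 were called lower (20.6%) and 3 higher (8.82%), against 5.85% and 6.73% of all genes. Eci1, the enoyl-CoA isomerase needed for unsaturated chains, had the lowest difference, from 5.79 ± 2.63 in control to 3.18 ± 2.98 in cKO cells (-2.62, with -2.19 and -3.15 in the batches). The fatty acid binding protein Fabp3 (-1.47), the thioesterase Acot13 (-1.44) and the acyl-CoA synthetase Acsl3 (-1.41) followed, with Acsl5, Crat and Acad9 also lower. Acad10 (1.63), the coactivator Ppargc1b (1.19) and Acadsb (1.17) were higher.

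The pooled median of glycolysis in CM-like cells was opposite in sign to those of both pathways, whose batch 1 medians were near 0 (0.01 and -0.01). Its 15 genes had a median difference of 0.87 (1.06 in batch 1 and 0.78 in batch 2). Of them 6 were called higher (40%) and 0 lower, where 6.73% and 5.85% of all genes were. The phosphofructokinase Pfkp (2.80) and the hexokinase Hk2 (2.11) were among those called. No test compared the lists.

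Pooling all cells of a genotype, whatever their class, turned the medians to 0.22 for the TCA genes and 0.14 for the fatty acid oxidation genes. Of all 16659 genes that passed in that comparison, 6% were called higher and 5.77% lower. Idh2 (1.41), Cpt1b (1.35) and Acadm (1.97) were called higher, and Suclg2 (-1.40) and Slc25a20 (-1.22) lower. In that comparison 66 of 69 cKO cells but 27 of 74 control cells were CM-like. The part of class makeup in these values was not tested.

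The second comparison asks how the members stand between cell classes of the control heart. CM-like cells had higher levels of most members than endothelial-like cells (22 cells, of which 7 from batch 1). The median difference was 0.81 for the 21 TCA genes (0.65 and 0.96 in batches 1 and 2) and 0.78 for the 15 fatty acid oxidation genes that passed (0.45 and 0.85), while the median of all 13130 genes was -0.29. 7 TCA and 4 fatty acid oxidation genes were called higher (33.3% and 26.7%) and 0 lower. Of all genes, 8.11% were called higher and 20.5% lower. The 15 glycolysis genes were also higher in CM-like cells, all 15 in both batches. Their median difference was 1.17 (1.01 and 1.42 in batches 1 and 2), and 9 were called higher (60%) and 0 lower. The higher levels were therefore not limited to the TCA and fatty acid oxidation genes. No test compared the lists. With 4 clusters, the 7 unnamed control cells join the CM-like cells. The TCA and fatty acid oxidation medians then turned, to -0.25 and -0.26 (-0.49 for all genes). With clusters from the 1000 most variable genes they were -0.29 and -0.36 (-0.48 for all genes). The clusters were drawn from marker genes that include no member, but a cell's markers and members come from the same library, so this is a description.

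Cpt1b showed the widest gap. It averaged 5.69 ± 1.97 in CM-like and 0.76 ± 1.51 in endothelial-like cells, a difference of 4.93 (5.01 and 5.05 in the batches), and was at 1 TPM or more in 26 of 27 and 5 of 22 cells. Cpt1a, which did not pass the filter here, ran the other way when pooled, 0.21 against 1.36. It was at 1 TPM or more in 6 of 22 endothelial-like cells, and Cpt1b exceeded Cpt1a in 8 of those 22. Those 6 cells were all of batch 2. In batch 1 Cpt1a was at 0 in each endothelial-like cell and above 0 in some CM-like cells, so the batches did not share this direction. Dlat (5.97 against 3.17, 2.80 higher), Cpt2 (2.39), Idh3a (1.88), Acadm (1.76) and Sdhb (1.48) were also higher in CM-like cells, while Slc25a20 had a lower mean there (2.95 against 3.96, -1.01 pooled, with -0.42 and 0.00 in the batches), as did Acaa2 (-0.49), Sdhc (-0.48), Acadvl (-0.46), Etfdh (-0.44), Cs (-0.26), Suclg2 (-0.17) and Hadh (-0.10), none of them called. Of the 15 fatty acid oxidation genes that passed, 0 were lower in batch 2, so their lower pooled means were not shared by both batches. Of the 21 TCA genes, 2 were lower in both batches.

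The remaining control classes are given by their means. Cpt1b averaged 0.39 in epicardial-like cells. In the 5 erythroid-like cells, all of batch 2, it was 7.50, 6.38, 0.40, 0 and 0, so the mean of 2.86 rests on 2 cells. Those 2 cells had means over the TCA genes of 8.24 and 7.65. The mean level of cardiomyocyte markers was 6.55 ± 3.86 in this class, against 10.52 in control CM-like and 3.85 in endothelial-like cells. Whether the erythroid-like class is mixed was not tested. Acadm was lowest in epicardial-like cells (2.28), while Suclg2 was higher there (5.60) than in control CM-like cells (4.98). Both cKO values, 4.12 for Cpt1b and 3.48 for Suclg2, were lower than in control CM-like cells, but the Cpt1b value stayed above the means of the other classes.

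**Figure D5:**
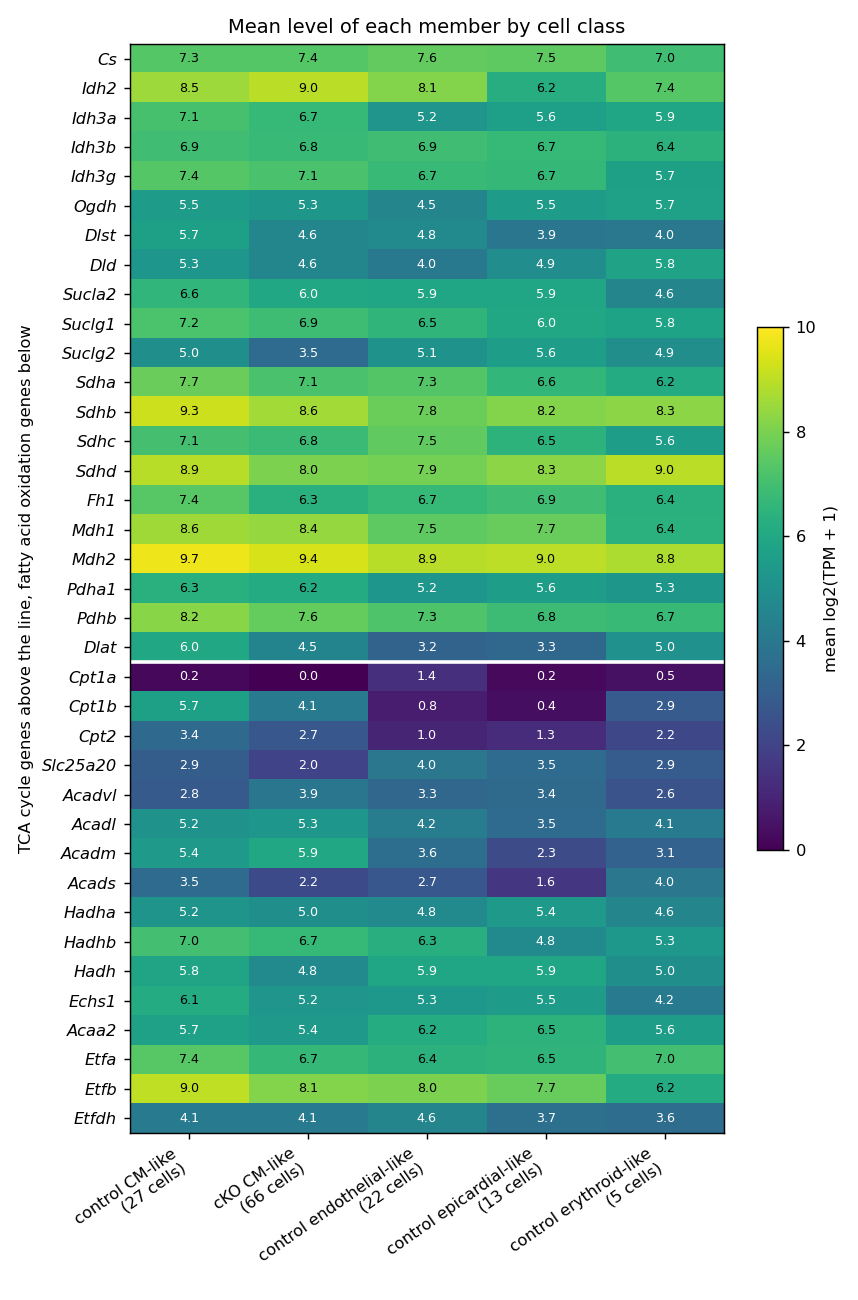
Mean log2(TPM + 1) of each member (rows, TCA genes above the white line) in control CM-like, cKO CM-like, control endothelial-like, epicardial-like and erythroid-like cells (columns). Mdh2 and Sdhb have high means in each column, while Cpt1b, Cpt2 and Dlat are highest in control CM-like cells.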

How the data were processed

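Per the labels and the study's methods, the authors mapped paired reads of each hand-picked cell with Salmon against mm10 and deposited TPM per gene. The version and annotation release are not given in the sources used here. Cells with a low mapping rate had been left out by the authors. By the paper, cells of both genotypes with abnormal GFP and tdTomato reporter levels were also excluded from its comparisons. The totals per cell ranged from 996133 to 999999 TPM, which keeps no depth. A few abundant transcripts lower all other TPM values of a cell. Smart-seq2 reads carry no molecular identifiers. Of 170 labelled cells, 143 had a column and the others were not analysed here.

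Values were taken as log2(TPM + 1). Cells were clustered into 5 groups (Ward linkage on z-scores of 55 markers, scipy 1.17.1, numpy 2.4.6, Python 3.11.15), and a cluster was named by at least 3 markers above the other cells. No doublet caller was run on these hand-picked cells. Genes above 0 in more than 10 compared cells were kept. A call needed a pooled difference of at least 1 and the same sign in both batches. The numbered cells of a genotype count as 1 sample, so no test was run. Shares have 95% Clopper-Pearson intervals. The difference of means was checked with known changes planted in real cKO cells, in genes detected in nearly all of them. That check did not cover sparsely detected genes or the rule on the sign in both batches. Coordinates and promoter windows are from RefSeq GRCm38.p6.

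The members and gene lists were chosen with earlier results of these data known. Each member is named with its pooled difference. Described in full are, in each pathway, the 5 members with the largest difference of the same sign in both batches, the 2 with the largest difference against the pathway median, and the pairs Cpt1a with Cpt1b and Sucla2 with Suclg2. Neighbours are named if called (at most 6 a list) or if they belong to a complex of a member, and Acsl5, Crat, Acad9, Acadsb, Pfkp, Hk2 and genes named between cell classes were named after their values were seen. A neighbour that this rule names is not reported here.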

Additional observations from a re-analysis of the deposited data

How the results depend on the processing

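The median differences between genotypes turned under 2 other clusterings and when all cells of a genotype were pooled, and kept their sign under the others. With 4 clusters, where the 7 control and 3 cKO unnamed cells joined the CM-like cells, the medians were 0.42 (TCA) and 0.053 (fatty acid oxidation), with 0 genes called lower in both and 1 and 2 called higher. With clusters from the 1000 most variable genes (37 control and 69 cKO cells, that is 50% and 100% of each genotype, as were 69 cKO cells with 4 clusters) they were 0.61 and 0.23, with 0 called lower and 2 and 2 higher. Of all genes, 2.28% and 2.10% were called lower in these clusterings, and 11.9% and 12.1% higher. Over all cells of a genotype the medians were 0.22 and 0.14, with 1 and 1 called lower and 1 and 2 higher. There 15 of 21 and 10 of 16 genes were higher, and 5.77% of all genes were called lower and 6% higher. Of the genes described in full and called in CM-like cells, Dlat (0.19), Cpt1b (1.35), Fabp3 (2.24) and Acot13 (0.29) turned. Genes called lower, of 4 TCA and 3 fatty acid oxidation genes, became 0 and 0 with a pseudocount of 10, 1 and 1 for the log2 ratio of the mean TPM, and 7 and 7 after upper-quartile scaling. Over all genes 1.41%, 4.44% and 9.92% were called lower in these settings, against 5.85%. The TCA count was 2 for the difference of the median cell, and the fatty acid oxidation count was 5 with a pseudocount of 0.1 and 5 in cells under 10% mitochondrial transcripts (added after seeing the data). Of all genes, 7.36%, 11.5% and 8.76% were called lower in these settings. The log2 ratio moved the median of all genes from 0.06 to 0.21. Of the members described in full, 158 of 160 values stayed within 1 SD over cells. For several members that SD is wider than the calling limit of 1. A value can therefore stay within it and still lose its call or its sign.

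Between control CM-like and endothelial-like cells the medians were -0.25 (TCA) and -0.26 (fatty acid oxidation) with 4 clusters and -0.29 and -0.36 with the variable genes. Then 2 and 4, and 3 and 4, genes were called lower, and 1 and 2, and 1, called higher. Of all genes, 30.2% and 28.2% were called lower in these settings, and 4.5% and 2.97% higher. The medians were 1.32 and 1.18 after upper-quartile scaling, with 14 and 8 called higher. Under 10% mitochondrial transcripts they were 1.11 and 1.22, with 14 and 8. In the last 2 settings 11.2% and 11.02% of all genes were called higher, against 8.11%. The difference of the median cell gave 12 TCA genes higher, where 7.5% of all genes were. A pseudocount of 0.1 and cells with 6000 to 11000 detected genes each gave 1 fatty acid oxidation gene lower, where 28.5% and 19.4% of all genes were. The cluster alternatives change which cells are compared. No paired analysis was possible because titles number cells rather than embryos and no test was run. With 1 sample per genotype, 8 control CM-like cells in batch 2, unlike batches and unknown depth, differences near the calling limit are loosely fixed.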

Other observations

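The 10 unnamed cells had low pathway levels, with 1 exception. Mean log2(TPM + 1) over the 21 TCA genes was 0.98, 1.01, 1.16, 1.58, 2.24, 3.47 and 7.16 in the 7 control cells and 1.75, 2.83 and 3.52 in the 3 cKO cells. The control cell at 7.16 had 10851 genes detected and 4.32% mitochondrial transcripts, and the other control cells had 2063 to 6373 genes and 31.4% to 61.1%. The cKO cells had 4244 to 6521 genes and 12.96% to 61.4%.

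Mdh2 and Mdh1, the mitochondrial and cytosolic malate dehydrogenases, correlated across control CM-like cells with r = 0.71 (n = 27 cells) and across cKO CM-like cells with r = 0.18 (n = 66 cells). Mdh2 exceeded Mdh1 in 25 of 27 and 57 of 66 of these cells. 1 control cell, with 3805 genes detected, had Mdh1 at 0.43 and Mdh2 at 7.48, while Mdh1 was 6.94 or more in the other control cells. The weight of that cell in the control correlation was not tested. Idh2 exceeded Idh3a by a mean of 1.45 log2 units in control and 2.27 in cKO CM-like cells. Cells share library chemistry and depth, and the difference between genotypes was not tested.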
